A study of Rattus norvegicus with 30 samples.

Results

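The ZIP proteins, encoded by the Slc39a genes, are the carriers that move zinc into the cytoplasm, either across the plasma membrane or out of organelles. They work against the zinc exporters of the Slc30a family, which remove zinc from the cytoplasm, and beside the metallothioneins, small cysteine-rich proteins that bind it. The hippocampus is rich in zinc, which glutamatergic terminals store in synaptic vesicles and release with transmission. When cytoplasmic zinc rises, the zinc-sensing transcription factor MTF-1, the product of Mtf1, is known to raise the transcription of metallothioneins and of the exporter gene Slc30a1.

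The members described here are 10 ZIP genes, Slc39a1, Slc39a3, Slc39a6, Slc39a7, Slc39a8, Slc39a9, Slc39a10, Slc39a11, Slc39a13 and Slc39a14, of 14 Slc39a genes and 21993 genes listed in all. They were taken by gene symbol, and the set was chosen by the normalized counts of Slc39a10, which were lower with cannabidiol (CBD) than with its vehicle. Every CBD comparison below is therefore a description without a test. All cultures were wild-type primary neurons of the hippocampus of Wistar rat embryos at embryonic day 18, kept for 7 days before treatment. They received 30 µM dimethyl fumarate (DMF) or 30 µM monomethyl fumarate (MMF) in dimethyl sulfoxide (DMSO), 6 µM CBD in ethanol (EtOH), or the vehicle alone, for 4 or 24 h, with the vehicle at 0.2% throughout. DMF is the dimethyl ester of fumaric acid, and MMF is its monomethyl ester, into which DMF is hydrolysed. Each of the 10 groups held 3 RNA libraries with the replicate numbers 1 to 3, and whether they came from separate litters was not stated, so p-values measure the spread between these libraries.

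Reads on genes numbered between 15108132 and 25367834 per library. Within a comparison, values are given as normalized counts (reads divided by a size factor per library), and across all groups as CPM, the reads of a gene relative to the library's total after TMM scaling (trimmed mean of M-values). Groups were compared with limma on log2(normalized count + 1), with Benjamini-Hochberg adjustment over all genes tested, and a gene was called at an adjusted p under 0.05. A log2FC is the fitted log2 difference on that scale, given with its standard error (SE). The 8 neuronal markers summed to between 3241 and 4607 CPM per library, and the 7 astrocyte markers to between 2022 and 5145 CPM, so astrocyte markers were also present in every library. The 7 microglial markers were near 0, with a sum between 1.18 and 9.97 CPM. In such bulk RNA, fewer cells of a type and less RNA per cell cannot be told apart.

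Of the 10 members, 9 passed the filter on low counts in every comparison. Slc39a7, which encodes a ZIP protein of the endoplasmic reticulum and Golgi, was the exception. It had 1 read over all 30 libraries and was listed in 3 of the 15 tables used, so it is recorded here as listed at or near 0 and was not tested. Slc39a7 is known to be widely expressed, and whether its count reflects the annotation or the counting rather than the RNA was not tested. Slc39a8, a carrier of manganese and iron as well as zinc, was low, with between 0.228 and 1.57 CPM and at most 32 reads in any library, and its log2FCs have the largest SEs among the members. The other 8 had at least 20.2 CPM in every library. Because transcript lengths were not used here, the levels of different genes are not compared with each other.

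Over the 10 groups, Slc39a10 was the member with the widest range of group means, which includes the CBD groups whose values chose the set. Slc39a10 (ENSRNOG00000011677, mRatBN7.2 chromosome 9, 54876141 to 54960325) belongs to the LIV-1 subfamily, imports zinc at the plasma membrane and is closely related to Slc39a6. Its lowest mean was 30.9 ± 8.10 CPM (SD, n = 3) with CBD at 24 h, followed by 46.6 ± 20.7 CPM (SD, n = 3) with CBD at 4 h and 79.7 ± 9.08 CPM (SD, n = 3) with DMF at 24 h. The libraries of the 2 CBD groups overlapped, since the highest at 24 h had 39.8 CPM and the lowest at 4 h had 33.8 CPM. The highest CBD library, replicate 1 at 4 h with 70.5 CPM, lay just below the lowest DMF library at 24 h with 71.0 CPM. All 21 libraries of the other 7 groups lay above these, between 94.9 and 119 CPM, and their group means ran from 97.9 ± 2.66 CPM (SD, n = 3) with EtOH at 4 h to 115 ± 4.30 CPM (SD, n = 3) with EtOH at 24 h. Of the variation of Slc39a10 on the log2 scale, 91.1% lay between groups and 3.11% between replicate numbers. The share between groups includes the CBD libraries, so it follows in part from the choice of the set. Without CBD, the libraries lay between 71.0 and 119 CPM.

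**Figure D1:**
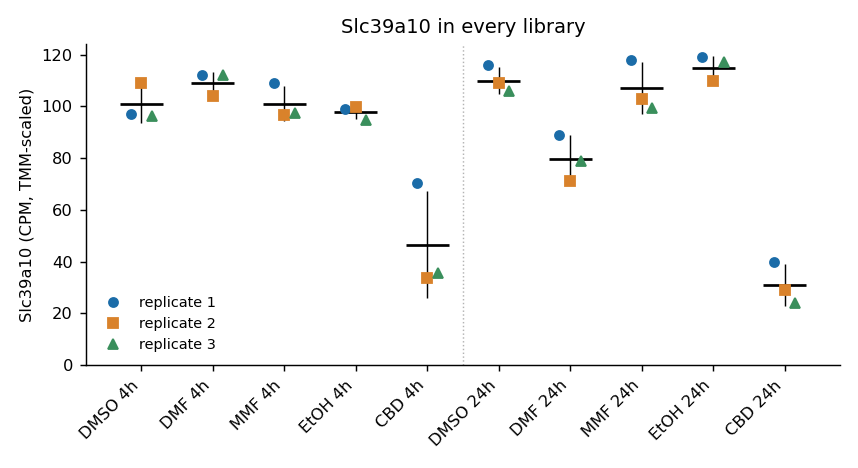
Slc39a10 in CPM (vertical axis, linear) for each of the 30 libraries by group. Symbols mark replicate numbers, horizontal bars the mean of 3 libraries and vertical lines 1 SD. The 3 groups that sit low are CBD at 4 h, CBD at 24 h and DMF at 24 h, and the other 21 libraries lie between 94.9 and 119 CPM.

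The remaining members were distributed otherwise. The ratio of the highest to the lowest group mean was 3.73 for Slc39a10, whose lowest mean was with CBD and so entered the choice of the set. This ratio was 2.02 for the scarce Slc39a8, and between 1.15 and 1.39 for the other 7. Over 14930 genes, the median share of variation was 44.2% between groups and 16.6% between replicate numbers. Slc39a1, which encodes a widely expressed plasma membrane importer, showed 6.57% between groups and 77.9% between numbers. Its mean over the 10 groups was 86.7 CPM in replicate 1, 99.3 CPM in replicate 2 and 67.9 CPM in replicate 3. The summed astrocyte markers were also lowest in replicate 3, where they lay between 2022 and 2937 CPM against 3359 to 5145 CPM in replicates 1 and 2, and their part in the level of Slc39a1 was not tested. Slc39a11, a relative of bacterial zinc carriers, had 71.9% of its variation between numbers and was instead lowest in replicate 1, with a mean of 34.4 CPM against 41.1 and 41.3 CPM. By contrast, Slc39a9, whose product is found at the Golgi and plasma membrane, had 80.4% between groups, and Slc39a14, an importer of zinc, iron and manganese, had 77.0%.

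**Figure D2:**
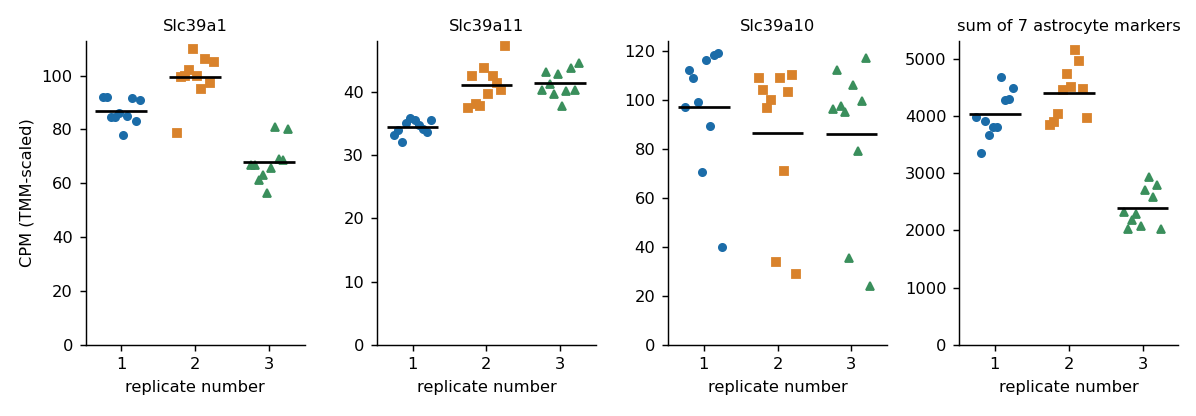
CPM (vertical axes, linear, from 0) of Slc39a1, Slc39a11, Slc39a10 and of 7 astrocyte markers summed, by replicate number. Each point is 1 library, with the 10 groups side by side, and bars are means over the groups. Slc39a1 and the astrocyte sum are lowest in replicate 3, Slc39a11 is lowest in replicate 1, and the low points of Slc39a10 are the CBD libraries and DMF at 24 h.

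In CBD-treated neurons, Slc39a10 was lower than with EtOH at both times, which is the readout that chose the set. After 4 h, normalized counts were 1386, 665 and 694 with CBD and 1943, 1966 and 1858 with EtOH, for replicates 1 to 3. The difference was smallest in replicate 1, with log2 differences of -0.49, -1.56 and -1.42, and the fitted log2FC was -1.16 (SE 0.253). After 24 h, the counts were 753, 551 and 453 with CBD against 2241, 2100 and 2222 with EtOH. All 3 CBD libraries lay far below every EtOH library, with log2 differences of -1.57, -1.93 and -2.29 and a log2FC of -1.93 (SE 0.167), a level 3.81-fold lower. Between 4 and 24 h of CBD, the log2FC was -0.54 (SE 0.301), the libraries overlapped, and the value was -0.20 without replicate 1 at 4 h.

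No other member came near this size with CBD. At 4 h, the other 8 members had log2FCs between -0.33 for Slc39a8 and 0.25 for Slc39a14, and at 24 h between -0.12 for Slc39a3 and 0.15 for Slc39a1. The median of the 9 members was -0.01 at 4 h and 0.06 at 24 h, against -0.001 and -0.005 over all genes tested. Slc39a14 lay above EtOH in every CBD library at both times, with 581, 634 and 599 normalized counts against 510, 552 and 465 at 4 h, and 571, 584 and 602 against 538, 542 and 504 at 24 h. Its log2FC was 0.25 (SE 0.0872) at 4 h and 0.15 (SE 0.0903) at 24 h. Slc39a9 also lay apart at 24 h, with 1965, 1918 and 1922 against 1751, 1778 and 1694 (log2FC 0.15, SE 0.0716), and at 4 h its log2FC was -0.01 (SE 0.0568).

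Beyond these, 6 members overlapped with EtOH at both times. For Slc39a6, the nearest relative of Slc39a10, the log2FC with CBD was -0.12 (SE 0.0666) at 4 h and 0.06 (SE 0.113) at 24 h. Slc39a13, a carrier of the Golgi and intracellular vesicles, gave 0.01 (SE 0.0757) and -0.12 (SE 0.102), in the same order. Slc39a1 gave -0.01 (SE 0.257) and 0.15 (SE 0.144), with a spread that followed its replicate numbers. Slc39a3, another plasma membrane importer, gave -0.03 (SE 0.102) and -0.12 (SE 0.128), and Slc39a11 gave 0.12 (SE 0.0949) and 0.15 (SE 0.134). The log2FC of Slc39a8 was -0.33 (SE 0.370) at 4 h and 0.06 (SE 0.453) at 24 h. Counted by libraries that did not overlap, 1 of 9 members lay below EtOH at each time, while 5.25% of all genes did at 4 h and 8.59% at 24 h, and 1 lay above at 4 h and 2 at 24 h, where 4.70% and 7.35% of all genes did.

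**Figure D3:**
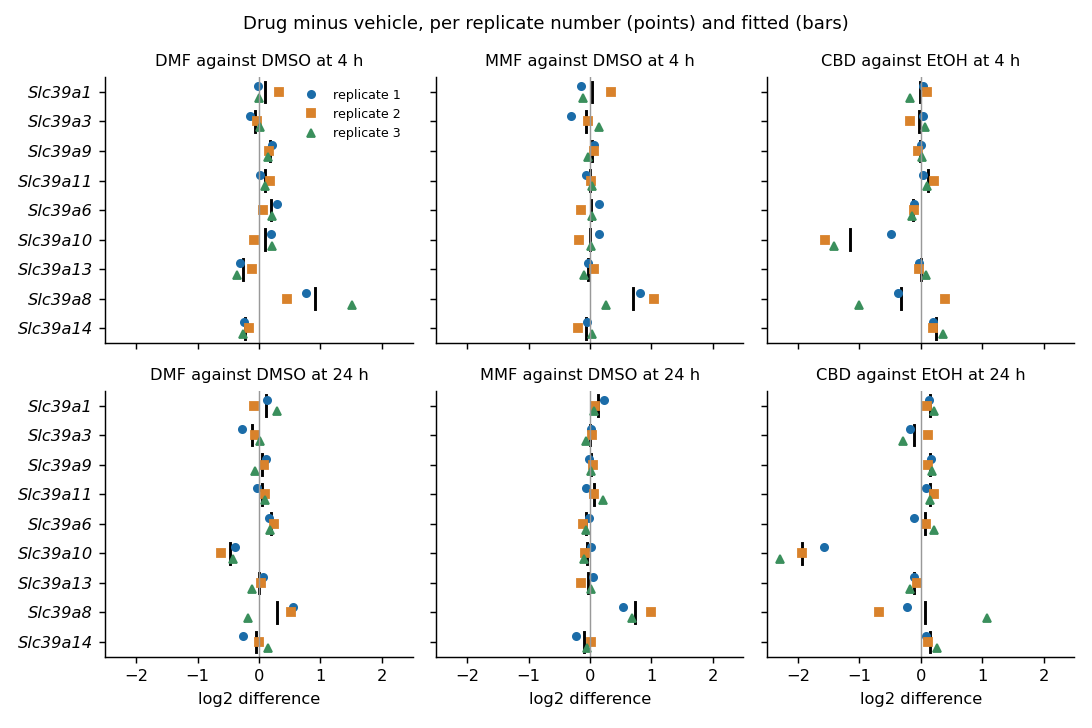
Log2 difference between drug and vehicle (horizontal axes) for the 9 members with enough reads, in 6 comparisons. Points are single replicate numbers and bars the fitted log2FC. Slc39a10 stands far to the left with CBD at both times and moderately to the left with DMF at 24 h, at a log2FC of -0.48, and the points of the scarce Slc39a8 scatter most.

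Of the 23 other genes of zinc transport and storage on a fixed list, 19 passed the filter with CBD at each time. They are named here because their CBD libraries did not overlap with EtOH, a choice made after the values were seen and not a test. At 4 h, 5 lay above EtOH, namely the exporters Slc30a1, Slc30a2 and Slc30a6 and the metallothioneins Mt1 and Mt2A, and 2 lay below, the importer Slc39a5 and the sensor Mtf1, where 4.70% and 5.25% of all genes did. The log2FC at 4 h was 1.18 (SE 0.0706) for Slc30a1, the plasma membrane exporter, and 3.50 (SE 0.597) for Slc30a2, an exporter of vesicles. It was 3.54 (SE 0.418) for Mt1 and 2.22 (SE 0.409) for Mt2A, and reads of Mt1 may be shared with its listed pseudogene Mt1-ps3. The others moved little, with 0.14 for Slc30a6 and -0.14 for Mtf1, while Slc39a5 gave -0.28 (SE 0.0834).

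At 4 h, replicate 1 had the smallest log2 differences of Mt1, Mt2A, Slc30a1 and Slc30a2 as well. For Mt1 they were 2.63, 4.07 and 3.90 for replicates 1 to 3, and for Slc30a2 they were 2.51, 3.87 and 4.13. The library with the smallest loss of Slc39a10 was thus also the one with the smallest gain of Mt1 and Slc30a2. At 24 h, replicate 3 had the largest differences, with -2.29 for Slc39a10, 4.84 for Mt1 and 4.74 for Slc30a2. The log2FC at 24 h was 4.01 (SE 0.312) for Mt1, 2.83 (SE 0.305) for Mt2A, 3.50 (SE 0.534) for Slc30a2 and 0.98 (SE 0.112) for Slc30a1. Also apart at 24 h were Slc30a7, which lay above EtOH with a log2FC of 0.24, and 4 genes that lay below, namely Slc39a5 (-0.39), the iron and manganese carrier Slc11a2 (-0.25), the zinc-binding membrane protein Tmem163 (-0.23) and Mtf1 (-0.10). Thus 5 of 19 lay above and 4 below at 24 h, where 7.35% and 8.59% of all genes did. In the same CBD libraries, 5 stress genes (Hmox1, Nqo1, Ddit3, Hspa5 and Hspa1b) summed to between 659 and 1038 CPM at 4 h and between 489 and 1983 CPM at 24 h, against 450 to 504 CPM with EtOH. The neuronal sum at 24 h was 3632 to 3855 CPM with CBD and 3908 to 4607 CPM with EtOH, while at 4 h it overlapped. The astrocyte sum at 24 h was 4480, 3960 and 2025 CPM with CBD against 4297, 4470 and 2798 CPM, for replicates 1 to 3. The oligodendrocyte lineage sum was 896, 987 and 521 CPM against 796, 1108 and 713 CPM. The part of these values in the level of Slc39a10 was not tested.

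**Figure D4:**
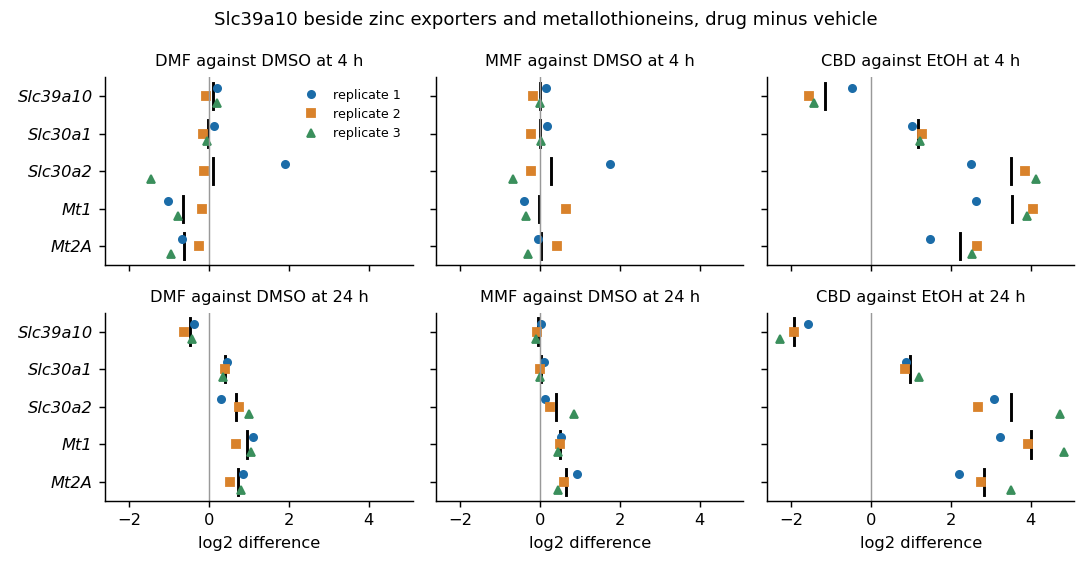
Log2 difference between drug and vehicle (horizontal axes) for Slc39a10, the exporters Slc30a1 and Slc30a2 and the metallothioneins Mt1 and Mt2A. Points are replicate numbers and bars the fitted log2FC. With CBD, Slc39a10 lies left of 0 and the other 4 genes right of it in every replicate, and with DMF at 24 h the same sides hold at smaller sizes.

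The promoters of these genes are printed because Slc39a10 lies on the opposite side of 0 from Mt1 and Slc30a1 with CBD. MTF-1 is known to bind metal response elements, whose core was searched for as TGCACNC or TGCGCNC on both strands in the 250 bases before the annotated start of each gene (RefSeq, assembly GRCr8), with overlapping matches counted separately. Of 27457 promoters, 21.2% held at least 1 match and 5.13% held 2 or more. Capitals mark the matches, and the sequences run from 5′ to 3′ on the strand of the gene.
Slc39a10, chr9:62405183-62405432, plus strand: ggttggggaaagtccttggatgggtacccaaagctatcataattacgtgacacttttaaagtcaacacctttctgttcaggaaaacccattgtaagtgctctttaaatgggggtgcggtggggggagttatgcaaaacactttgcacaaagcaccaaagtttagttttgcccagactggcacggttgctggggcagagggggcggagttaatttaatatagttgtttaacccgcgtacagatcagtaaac
Slc30a1, chr13:106021769-106022018, plus strand: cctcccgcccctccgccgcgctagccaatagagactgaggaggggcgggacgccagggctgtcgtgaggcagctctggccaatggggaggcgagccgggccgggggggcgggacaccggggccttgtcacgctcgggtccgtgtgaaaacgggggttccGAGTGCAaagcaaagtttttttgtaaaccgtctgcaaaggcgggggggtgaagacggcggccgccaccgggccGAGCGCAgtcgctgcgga
Mt1, chr19:10832976-10833225, minus strand: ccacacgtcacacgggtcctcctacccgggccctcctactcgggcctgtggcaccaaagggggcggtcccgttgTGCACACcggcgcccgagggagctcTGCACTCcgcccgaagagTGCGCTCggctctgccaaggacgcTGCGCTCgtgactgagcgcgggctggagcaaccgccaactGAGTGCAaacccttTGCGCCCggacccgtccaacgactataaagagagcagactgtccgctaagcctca

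The window of Mt1 held 6 matches and that of Slc30a1 held 2, while the window of Slc39a10 held 0. Mt2A held 4 and Slc30a2 held 2. Among the members, 9 of 10 matched a promoter of the table (none was found for Slc39a14), and 4 of these 9 held a match, namely Slc39a1 with 1, Slc39a7 with 4, Slc39a11 with 2 and Slc39a13 with 2. A match is a description of the letters and not a binding site, and nothing about the factor follows from a window without one.

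In limma without the replicate block, DMF gave the only call among the members in a comparison with vehicle. The block fits the replicate numbers as pairs. With it, 3 of 9 members passed for DMF at 4 h and 2 at 24 h, where 23% and 12.9% of all genes did. At 24 h, Slc39a10 had 1640, 1308 and 1456 normalized counts with DMF and 2145, 2016 and 1948 with DMSO, for replicates 1 to 3. Every DMF library lay below every DMSO library, with log2 differences of -0.39, -0.62 and -0.42. Slc39a10 fell by 0.48 on the log2 scale (SE 0.0881, 95% interval -0.68 to -0.28, adjusted p = 0.0217), a level 1.39-fold lower. It was 1 of 9 members tested, while 3.97% of the 13967 genes tested were called in either direction and 2.09% as lower. The call was lost without replicate 2 of DMF (adjusted p = 0.0707) and without replicate 1, 2 or 3 of DMSO (adjusted p = 0.123, 0.0784 and 0.0578). It was also lost when the spread was taken from all 30 libraries (SE 0.179, adjusted p = 0.156). That spread includes the CBD libraries that chose the set, where Slc39a10 had an SD of 20.7 CPM at 4 h. In the same comparison, limma called all 5 proliferation genes (Mki67, Top2a, Cdk1, Ccnb1 and Aurkb) and 3 of 7 oligodendrocyte lineage genes as lower. It also called 1 of 7 astrocyte genes and 0 of 8 neuronal genes as lower, and 3 of 5 stress genes as higher. The proliferation sum was 78.1 to 91.3 CPM with DMF and 185 to 203 CPM with DMSO. The neuronal sum did not overlap either, with 3298 to 3991 CPM with DMF and 3998 to 4375 CPM with DMSO. The astrocyte sum was higher with DMF in each replicate number, with 4677, 5145 and 2937 CPM against 3803, 4499 and 2704 CPM. The median log2FC of the astrocyte genes was nonetheless -0.20. The mean of Gfap was higher, with 2230 CPM against 1330 CPM. Slc1a3 (781 against 897 CPM) and Aqp4 (231 against 363 CPM) were lower with DMF. The part of these changes in the result was not tested.

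The related Slc39a6 lay on the other side. Slc39a6 (ENSRNOG00000028703, mRatBN7.2 chromosome 18, 15864875 to 15885417) had 2005, 2190 and 2148 normalized counts with DMF at 24 h and 1786, 1845 and 1897 with DMSO. All DMF libraries lay above all DMSO libraries, with a log2FC of 0.20 (SE 0.0627, adjusted p = 0.136), which passed the threshold with the replicate block (adjusted p = 0.0345), where 12.9% of all genes were called. Slc39a3 came next by p, with a log2FC of -0.11 (SE 0.0883, adjusted p = 0.583). The remaining 6 members overlapped between DMF and DMSO at 24 h, with log2FCs between -0.04 and 0.30. Counted by libraries that did not overlap, 1 of 9 members lay above DMSO and 1 below, where 11.3% and 11.5% of all genes did. The median of the 9 members was 0.04, against -0.007 over all genes.

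At 4 h of DMF, Slc39a10 did not show this difference. Its normalized counts were 2210, 2070 and 2223 with DMF against 1942, 2186 and 1924 with DMSO, and the libraries overlapped (log2FC 0.11, SE 0.0756, adjusted p = 0.498). The DMF effect on Slc39a10 was lower at 24 h than at 4 h by 0.58 on the log2 scale (log2 difference of the 2 effects -0.58, SE 0.118, 95% interval -0.84 to -0.33, adjusted p = 0.0168), in a comparison where 4.12% of 14432 genes were called, 2.33% as lower. This call was lost without replicate 1 of DMSO at 24 h (adjusted p = 0.0561). Within the DMF libraries alone, Slc39a10 fell by 0.45 from 4 to 24 h (SE 0.0924, adjusted p = 0.0144), with 2274, 2127 and 2275 normalized counts at 4 h and 1824, 1453 and 1623 at 24 h. There 15.5% of all genes were called, 7.93% as lower, and the call was lost without replicate 2 at 24 h (adjusted p = 0.0553) or replicate 1 at 4 h (adjusted p = 0.0501). The proliferation genes moved with both results, with 5 of 5 lower at 24 h than at 4 h of DMF and 4 of 5 in the difference of the effects, and their part was not tested.

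Among all members, 0 of 9 passed the limma threshold at 4 h of DMF, where 3.41% of 14208 genes did. At an unadjusted p under 0.05 there were 3 of 9 members, and 2852 of the 14208 genes. DESeq2 and edgeR called 0 members. The log2FCs of the 9 members lay between -0.26 and 0.91, the highest for the scarce Slc39a8, whose libraries overlapped. Its mean at 4 h was 1.08 CPM with DMF and 1.12 CPM with MMF, against 0.596 CPM with DMSO and 0.974 CPM with EtOH. Slc39a13 (ENSRNOG00000011981) had 401, 435 and 407 normalized counts with DMF and 499, 474 and 518 with DMSO. Slc39a14 (ENSRNOG00000009832) had 439, 455 and 433 against 522, 513 and 519. In both genes, every DMF library lay below every DMSO library, and the log2FCs were -0.26 (SE 0.0893, adjusted p = 0.148) and -0.23 (SE 0.0816, adjusted p = 0.167). Slc39a9 (ENSRNOG00000005052) lay above, with 2067, 2029 and 2069 against 1791, 1813 and 1865 (log2FC 0.17, SE 0.0610, adjusted p = 0.162).

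Thus 1 of 9 members lay above DMSO without overlap and 2 lay below, where 13% and 13.3% of all genes did. With the replicate block, 3 of 9 members passed at 4 h of DMF, namely Slc39a13 (adjusted p = 0.0381), Slc39a9 (0.0271) and Slc39a6 (0.0277, log2FC 0.19), where 23% of all genes passed. In DMF libraries at 24 against 4 h, Slc39a13 and Slc39a14 were higher, with log2FCs of 0.28 (SE 0.0959, adjusted p = 0.0822) and 0.28 (SE 0.109, adjusted p = 0.114). Both passed with the block (adjusted p = 0.0252 and 0.0418), where 32.3% of all genes did. In that comparison 2 of 9 members lay above without overlap and 2 below, where 17.8% and 18.3% of all genes did. The difference between the DMF effects at 24 and 4 h did not pass for Slc39a13 (0.26, SE 0.121, adjusted p = 0.269) or Slc39a9 (-0.13, SE 0.0803, adjusted p = 0.408). The stress genes summed to 990 to 1213 CPM with DMF at 4 h and 442 to 515 CPM with DMSO, and their part in these values was not tested.

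With MMF, no member was called at either time. At 4 h, 0 of 9 members and 0% of 14032 genes passed in limma, 0 members had an unadjusted p under 0.05, and DESeq2 and edgeR called 0 members. Slc39a10 had 1962, 1761 and 1774 normalized counts with MMF and 1774, 1995 and 1755 with DMSO. The libraries overlapped, with a log2FC of -0.01 (SE 0.0858, 95% interval -0.20 to 0.19, adjusted p = 1.00). The members with the smallest p were Slc39a8 (0.71, SE 0.697), Slc39a14 (-0.07, SE 0.0997) and Slc39a9 (0.04, SE 0.0694), each with an adjusted p of 1.00. All 9 members overlapped between MMF and DMSO at 4 h, where 1.33% of all genes lay above without overlap and 1.43% below.

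At 24 h of MMF, 0 of 9 members passed in limma, where 0.00707% of 14137 genes did, and DESeq2 and edgeR called 0. At an unadjusted p under 0.05 there was 1 member, and 626 of the 14137 genes. That member was Slc39a8 (ENSRNOG00000012508), with 17.1, 24.3 and 15.2 normalized counts against 11.5, 11.7 and 9.14. All MMF libraries lay above those of DMSO, with a log2FC of 0.74 (SE 0.304, adjusted p = 0.952), but each value rests on at most 28 reads. It was the 1 of 9 members that lay above without overlap, where 4.62% of all genes did, and 0 lay below, where 5.11% did. Slc39a6 gave -0.07 (SE 0.0506, adjusted p = 0.952) and Slc39a14 gave -0.09 (SE 0.0714, adjusted p = 0.952). Slc39a10 had 2293, 2007 and 1922 normalized counts against 2256, 2118 and 2046. These overlapped, with a log2FC of -0.05 (SE 0.0737, 95% interval -0.22 to 0.12, adjusted p = 0.973). The MMF effect on Slc39a10 at 24 h minus that at 4 h was -0.04 (SE 0.114, adjusted p = 1.00), and 0 of 9 members passed in that comparison in limma, edgeR or DESeq2, with 0 at an unadjusted p under 0.05 (0% of 14413 genes called). The smallest p belonged to Slc39a6 (-0.08, SE 0.117), Slc39a11 (0.08, SE 0.164) and Slc39a3 (0.06, SE 0.157), each with an adjusted p of 1.00.

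The 2 fumarate esters, which differ by 1 methyl group, were then compared directly at the same dose and time, in 2 pairs of groups. At 24 h, Slc39a10 had 1812, 1446 and 1607 normalized counts with DMF and 2419, 2109 and 2023 with MMF. Every DMF library lay below every MMF library, with a log2FC of -0.43 (SE 0.10, 95% interval -0.66 to -0.20, adjusted p = 0.0565). It passed with the replicate block (adjusted p = 0.00192) and in DESeq2 (adjusted p = 0.00530). In the same comparison, all 5 proliferation genes (median log2FC -1.21) and 3 of 7 oligodendrocyte lineage genes fell, and 3 of 5 stress genes rose. The proliferation sum was 78.1 to 91.3 CPM with DMF and 213 to 226 CPM with MMF, and the part of these changes in the result was not tested. Slc39a6 was again on the other side, with 2217, 2421 and 2370 against 1960, 1879 and 2000. The DMF libraries all lay above, with a log2FC of 0.26 (SE 0.0639, adjusted p = 0.0654), which passed with the block (adjusted p = 0.0202) and in DESeq2 (adjusted p = 0.0320). Slc39a8 gave -0.45 (SE 0.374, adjusted p = 0.603). Thus 0 of 9 members passed in limma and edgeR, where limma called 3.56% of 14233 genes. At an unadjusted p under 0.05 there were 2 members, and 2467 of the 14233 genes. The block called 2 members, where it called 12.2% of all genes. Without overlap, 1 lay above and 1 below, where 11.6% and 11.1% of all genes did.

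At 4 h, the esters did not differ in Slc39a10 beyond the spread of the libraries, with 2189, 2047 and 2196 normalized counts for DMF and 2132, 1915 and 1929 for MMF (log2FC 0.11, SE 0.0758, 95% interval -0.07 to 0.28, adjusted p = 0.530). No member passed in limma, DESeq2 or edgeR, while limma called 1.61% of 14200 genes. At an unadjusted p under 0.05 there was 1 of 9 members, and 2477 of the 14200 genes. Slc39a13 came closest, with 397, 430 and 402 against 486, 489 and 479, so that all DMF libraries lay below (log2FC -0.24, SE 0.0878, adjusted p = 0.201). Slc39a9 gave 0.13 (SE 0.0645, adjusted p = 0.343) and Slc39a6 gave 0.17 (SE 0.0901, adjusted p = 0.378). With the block, Slc39a13 (adjusted p = 0.0417) and Slc39a6 (adjusted p = 0.0317) passed, where 23.6% of all genes did. Without overlap, 1 of 9 members lay above (Slc39a9) and 1 below, where 12.3% and 11.8% of all genes did. The comparisons of DMF with DMSO and with MMF share the DMF libraries, so their values are not independent of each other.

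Among the other genes of zinc transport and storage, 1 of 19 tested was called with DMF against DMSO at 24 h, the exporter Slc30a1. There, 3.97% of all 13967 genes tested were called. Its normalized counts were 743, 741 and 734 with DMF and 548, 561 and 573 with DMSO. All DMF libraries lay above all DMSO libraries, with a log2FC of 0.40 (SE 0.0686, adjusted p = 0.0163). The median of the 19 genes was 0.13, against -0.007 over all genes tested. With the block, 4 of 19 rose and 1 fell, where 5.81% of all genes rose and 7.1% fell. Those that rose were Slc30a1, Mt1 (log2FC 0.94, SE 0.248, adjusted p = 0.0788 without and 0.000551 with the block), Mt2A (0.72, SE 0.230, adjusted p = 0.137 and 0.000331) and Slc39a12, a ZIP gene of the brain (0.36, SE 0.366, adjusted p = 0.679 and 0.0496), and the one that fell was Slc11a2 (-0.21, SE 0.0558, adjusted p = 0.0768 and 0.0239).

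At 24 h of DMF, then, the values stood in the same order as with CBD, with Slc39a10 below its vehicle and Slc30a1, Mt1 and Mt2A above, at smaller sizes and against a different vehicle. Mt1 and Mt2A passed there only with the block. Their means were also higher with MMF than with DMSO at 24 h, at 15.8 against 11.2 CPM and 62.5 against 39.4 CPM. With DMF they were 21.0 and 63.7 CPM. Slc39a10 averaged 107 CPM with MMF and 110 CPM with DMSO, and Slc30a1 30.9 and 30.4 CPM. Against MMF at 24 h, Slc30a1 was the 1 of 19 genes called (log2FC 0.37, SE 0.0688, adjusted p = 0.0249), where 3.56% of all genes were, with 821, 819 and 811 normalized counts against 647, 622 and 627. The block called 2 of 19 there, Slc30a1 and Mt1 (0.45, SE 0.257, adjusted p = 0.421 without and 0.0239 with it), where it called 12.2% of all genes. Over time in DMF, Slc30a1 (0.28, SE 0.0751, adjusted p = 0.0381) and Mt1 (1.17, SE 0.304, adjusted p = 0.0333) rose and Slc39a5 fell (-0.44, SE 0.0940, adjusted p = 0.0171). These 3 of 19 are close to the 15.5% called over all genes. The block added Slc30a2 (1.30, SE 0.471, adjusted p = 0.0952 and 0.0203) and Mt2A (0.79, SE 0.39, adjusted p = 0.205 and 0.0104), where it called 32.3% of all genes. The DMF effect on Slc30a1 was larger at 24 h than at 4 h by 0.43 (SE 0.104, adjusted p = 0.0383), the 1 of 19 called where 4.12% of all genes were. With the block, Mt1 (1.6), Mt2A (1.35) and Slc39a5 (-0.49) also passed (adjusted p = 0.00571, 0.0147 and 0.0148), where 13.2% of all genes did. The calls of Slc30a1 were lost in 4 of 6, 5 of 6, 6 of 6 and 11 of 12 fits that left out 1 library, in the order given, with adjusted p up to 0.104, 0.107, 0.118 and 0.10, those of Mt1 in 3 of 6 (up to 0.121) and those of Slc39a5 in 2 of 6 (up to 0.0661).

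At 4 h of DMF, 0 of these 19 genes passed in limma, and 3 passed with the block, a smaller share than the 23% of all genes. With the block, 1 rose, Slc39a5 (log2FC 0.37, SE 0.107, adjusted p = 0.0971 without and 0.00428 with it). The metallothioneins lay on the lower side there and fell under the block, with -0.66 for Mt1 (SE 0.420, adjusted p = 0.437 and 0.00315) and -0.63 for Mt2A (SE 0.476, adjusted p = 0.526 and 0.000307). Against MMF at 4 h, 0 of 19 passed without the block and 3 with it, where 23.6% of all genes did, namely Slc39a5 (0.31, adjusted p = 0.143 without and 0.00743 with it), Mt1 (-0.63, adjusted p = 0.522 and 0.000583) and Mt2A (-0.66, adjusted p = 0.587 and 2.12e-06). With MMF, 0 of 19 passed at 4 h and 0 of 20 at 24 h. The block called 3 at 24 h, Mt1 (0.49, SE 0.30, adjusted p = 0.952 without and 0.0118 with it), Mt2A (0.66, SE 0.285, adjusted p = 0.952 and 0.000208) and Slc39a12 (0.39, SE 0.307, adjusted p = 0.952 and 0.0114), where it called 1.38% of all genes. Between the vehicles and over time without DMF or CBD, limma called 0 of these genes, and the block called Slc39a12 in DMSO against EtOH at 24 h (-0.47, adjusted p = 0.973 and 0.0221, 0.486% of all genes), Mt1 over time in EtOH (-0.46, adjusted p = 1.00 and 0.0276, 1.05%) and Mt3 over time in MMF (0.28, adjusted p = 0.596 and 0.0453, 1.82%).

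Between the vehicles, and over culture time in DMSO, EtOH or MMF, limma called no tested member. Between DMSO and EtOH, 0 of the members other than Slc39a10 passed in limma, DESeq2 or edgeR at either time, with 0 at an unadjusted p under 0.05. Limma called 0% of all genes there (14088 tested at 4 h and 13989 at 24 h). The log2FC of Slc39a10 in DMSO against EtOH was 0.04 (SE 0.0718) at 4 h and -0.06 (SE 0.0659) at 24 h, given without a test because its EtOH values entered the choice of the set. The members with the smallest p were Slc39a8 (-0.83, SE 0.463, adjusted p = 1.00) and Slc39a3 (-0.10, SE 0.0900, adjusted p = 1.00) at 4 h. At 24 h they were Slc39a6 (0.11, SE 0.0640, adjusted p = 0.973) and Slc39a8 (-0.51, SE 0.440, adjusted p = 0.974).

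From 4 to 24 h, 0 of 9 members passed in limma, DESeq2 or edgeR in DMSO or MMF. In EtOH, where Slc39a10 is left out, 0 of the other members passed. Limma called 0% of all genes in each. At an unadjusted p under 0.05 there were 0 members in DMSO and MMF, and 0 of the other members in EtOH. Slc39a10 had 1928, 1947 and 1842 normalized counts at 4 h of EtOH and 2298, 2157 and 2275 at 24 h. Every library at 24 h lay above every library at 4 h, with a log2FC of 0.24 (SE 0.0620). These EtOH values entered the choice of the set, so this difference is a description without a test. In DMSO, its log2FC was 0.13 (SE 0.0730, adjusted p = 0.578), with 1750, 1963 and 1724 at 4 h against 2087, 1963 and 1905 at 24 h, and in MMF it was 0.09 (SE 0.0879, adjusted p = 0.720). Slc39a3 gave 0.15 in DMSO (SE 0.0677, adjusted p = 0.520) and 0.21 in MMF (SE 0.133, adjusted p = 0.586), Slc39a14 gave 0.10 in DMSO (SE 0.0784, adjusted p = 0.696) and 0.11 in EtOH (SE 0.0906, adjusted p = 1.00), and in EtOH Slc39a6 gave -0.07 (SE 0.0693, adjusted p = 1.00). In MMF, Slc39a11 gave 0.11 (SE 0.127, adjusted p = 0.772).

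Genes with a pattern like that of Slc39a10 were named by Pearson's r over the 30 libraries on log2 CPM, after the mean of each replicate number had been subtracted. These libraries share replicate numbers, vehicles and treatments, and the 6 CBD libraries lie apart, so r is a description. The 5 highest were Gucy1a1 (r = 0.858), Dnajc5 (r = 0.854), Arpc5 (r = 0.851), Akap5 (r = 0.850) and Gucy1b1 (r = 0.850). Gucy1a1 and Gucy1b1 encode the subunits of soluble guanylate cyclase, Dnajc5 a chaperone of synaptic vesicles, Arpc5 a subunit of the actin-nucleating Arp2/3 complex and Akap5 a scaffold of postsynaptic kinases. Over the 24 libraries without CBD, an alternative chosen after the data were seen, r was 0.851 for Gucy1a1, 0.933 for Gucy1b1, 0.736 for Akap5, 0.679 for Dnajc5 and 0.579 for Arpc5. Among the zinc genes, the lowest r over 30 libraries were -0.966 for Mt1, -0.959 for Mt2A, -0.921 for Slc30a2 and -0.907 for Slc30a1. Over the 24 libraries, r of these genes was -0.785, -0.546, -0.520 and -0.725. The list did not run opposite to Slc39a10 as a whole. Its highest r over 30 libraries were 0.747 for Slc39a5, 0.639 for Slc30a3, 0.512 for Mtf1 and 0.510 for Slc11a2. Over 24 libraries these were 0.408, 0.398, 0.066 and 0.601. Among the other 8 members with enough reads, r lay between -0.660 for Slc39a14 and 0.169 for Slc39a6 over 30 libraries, and between -0.447 for Slc39a6 and 0.211 for Slc39a3 over 24.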

How the data were processed

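Poly(A) RNA was sequenced from 30 cultures. Per the labels, the submitters' notes name cutadapt 4.4, Trimmomatic 0.39, HISAT2 2.2.1, HTSeq 2.0.3 and DESeq2 1.40.2, with build mRatBN7.2. The strand setting of HTSeq and its treatment of reads shared between genes are not given in the sources used here. The authors deposited 1 table per pair of groups, whose signal values are counts per gene divided by DESeq2 size factors computed within that pair. Their deposited log2 fold changes and p-values were not used, nor were the 4 tables that set CBD against DMF or MMF. Of the 15 tables used, 100% of values gave whole reads (within 0.01 read). A gene missing from the table of a pair was left out of that comparison. Where reads were joined over tables, a gene listed in none of a library's tables was given 0 reads in it.

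Genes were kept with edgeR 4.0.16 (filterByExpr, minimum count 10, minimum total 15) and tested with limma 3.58.1 in R 4.3.3 (empirical Bayes, mean trend, pseudocount 1), which was tested on simulated data. Replicate numbers pair libraries, as each experiment was repeated, and deviations from group means correlated at 0.129 or more within every number and comparison, above the minimum of 0.1. The main test had no block. The alternatives were DESeq2 1.42.0, edgeR's quasi-likelihood test, TMM scaling, no filter, a pseudocount of 0.1, the block, the spread of all 30 libraries, and leaving out each library.

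In each tested comparison, called members were named, up to 3 by smallest p where fewer passed, with Slc39a10 always, up to 5 called genes of the zinc list, and the 5 genes most like Slc39a10 by r. The members and lists were chosen with earlier results of these data known. Promoters came from RefSeq (GRCr8), and plots were drawn with matplotlib 3.10.9 in Python 3.11.15.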

Additional observations from a re-analysis of the deposited data

Results flagged for a closer look

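The DMF effect on Slc39a10 differed between the 2 times by a test of the difference itself. The effect at 24 h minus the effect at 4 h was -0.58 on the log2 scale (SE 0.118, adjusted p = 0.0168 in limma). The DMF libraries lay below those of DMSO in 3 of 3 replicate numbers at 24 h and in 1 of 3 at 4 h. Groups of 3 libraries were not searched for single libraries that stand apart.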

How the results depend on the processing

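The fall of Slc39a10 with DMF at 24 h and its difference between times kept their direction under all alternatives run, and the log2FC of Slc39a10 with CBD moved by less than its spread between replicates at each time. Other members moved by more than theirs with CBD when 1 library was left out, with Slc39a1 between -0.23 and 0.25 and Slc39a6 between -0.16 and -0.07 at 4 h, and Slc39a1 between 0.02 and 0.27 and Slc39a11 between 0.06 and 0.27 at 24 h. The number of members called changed as follows. With the replicate block, 3 members were called for DMF against DMSO at 4 h (23% of all genes) and 2 at 24 h (12.9%). It called 2 members for DMF against MMF at 4 h (23.6%), 2 at 24 h (12.2%) and 3 for 24 against 4 h in DMF (32.3%). The block changed no other call of a tested member. Slc39a10 is not counted in comparisons with EtOH, because its EtOH values entered the choice of the set. In limma with the spread of all 30 libraries, Slc39a9 (adjusted p = 0.0124) and Slc39a13 (0.0219) passed for DMF against DMSO at 4 h, and 0 members at 24 h. For Slc39a10, that spread includes the CBD libraries that chose the set. The share of all genes passing in that setting is not given here, so these calls cannot be set against it. DESeq2 called 2 members for DMF against MMF at 24 h, where it called 829 genes in all.

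When 1 library was left out, the number of members called ranged from 0 to 1 for DMF against DMSO at 24 h, for DMF against MMF at 24 h, for 24 against 4 h in DMF and for the difference between the DMF effects. The log2FC of Slc39a10 between 24 and 4 h of CBD ranged from -0.74 to -0.20. The sign of values near 0 turned with single libraries. For Slc39a10 with MMF at 4 h it ranged from -0.06 to 0.05 (0.05 without DMSO replicate 2, and 0.02 without MMF replicate 2 or 3), and with MMF at 24 h from -0.12 to 0.00 (without MMF replicate 3). For DMSO against EtOH at 4 h it ranged from -0.02 (without DMSO replicate 2) to 0.07. The difference between the MMF effects ranged from -0.11 to 0.01 for Slc39a10, from -0.13 to 0.02 for Slc39a6, from -0.03 to 0.18 for Slc39a11 and from -0.09 to 0.20 for Slc39a3, with 0.01, -0.03 and -0.09 without MMF replicate 1 at 4 h and 0.02 without DMSO replicate 1 at 4 h. The causes were not tested.

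Of the 5 genes most like Slc39a10, 2 were among the first 5 without subtracting the means of replicate numbers and 1 without the CBD libraries. Leaving out a library leaves 2 against 3 and fewer degrees of freedom. With 3 libraries a group, and between 4 and 32 reads for Slc39a8, small differences were not detectable.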
